A study of Homo sapiens with 2 samples.

Results

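To see where the transcription factor RFX6 sat inside genes but away from their ends, 533 intervals of a ChIP-seq peak list were examined. They were all intervals whose midpoint lay inside a protein-coding gene, more than 1 kb and at most 5 kb from the nearest end of a coding gene, and more than 1 kb from every other annotated gene end. They made up 10.7% (Wilson 95% interval 9.85 to 11.6) of the 4994 distinct intervals on chromosomes 1 to 22, and are called near-end intragenic intervals below. The rule chose intervals by position only, so the peak score, the width and the sequence played no part in the choice. Where an interval was listed more than once, its highest score was kept. Of the other intervals, 3035 lay within 1 kb of a coding gene end, 226 within 1 kb of a non-coding gene end, 724 deeper than 5 kb inside a coding gene and 476 outside coding genes.

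The cells were MHCC-97H, an established human hepatocellular carcinoma (HCC) line, which carried HA-tagged RFX6 and overexpressed it, and the chromatin was precipitated through the tag. The series holds 1 HA-RFX6 ChIP library and 1 input library of the same line, and a peak list of the input was not analysed here. With 1 ChIP library there was no replicate error, and the read depth behind an interval was unknown, so differences between sets of intervals are described without a test. Confidence intervals cover the counting of intervals, genes or promoters only. Positions are on GRCh38, because the listed coordinates sat at gene ends of that build, although the submitters' processing notes name GRCh37.

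RFX6, a winged-helix protein of the RFX (regulatory factor X) group, is best known from pancreatic islet cells. RFX proteins bind the X-box, an inverted repeat of a short half-site, and several of them control genes of cilia or of antigen presentation. Many human genes are transcribed from more than 1 start, so a position inside the longest form of a gene may be the promoter of a shorter form. Promoters of broadly used genes are rich in G and C and often hold GC boxes, bound by SP1-like factors, or CCAAT boxes, bound by NF-Y.

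Because a reference sequence was at hand for annotated transcript starts, the sequence of the intervals could be read where they overlapped the bases just before a start. Sequences of RefSeq (GRCh38.p14) are printed for 7 host genes, namely those of the strongest intervals at a start (SAMD8, SCAF11, FAM83G, DAG1), 2 genes of the lists described further on (DNAJB1, SERPINA1), and a Golgi gene whose sequence holds an RFX half-site (GOLGA1, chosen after its sequence was seen). Each run is the part of an interval that lies before the start, at most 250 bases, written 5′ to 3′ on the strand of the gene. The printed intervals of SCAF11, FAM83G and DNAJB1 lie wholly before the start and do not cover it. The SCAF11 run is from the weaker interval of that gene, with a score of 73. Capitals mark the letters of 4 kinds of motif, on either strand, which are spelled out where they are counted further on: the GC box, the CCAAT box, the E-box and the RFX half-site.
SAMD8: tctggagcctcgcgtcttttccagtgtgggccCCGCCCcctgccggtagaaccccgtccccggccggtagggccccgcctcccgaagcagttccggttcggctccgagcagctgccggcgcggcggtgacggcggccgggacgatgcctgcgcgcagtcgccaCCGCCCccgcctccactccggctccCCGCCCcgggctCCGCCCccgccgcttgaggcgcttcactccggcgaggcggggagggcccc
SCAF11: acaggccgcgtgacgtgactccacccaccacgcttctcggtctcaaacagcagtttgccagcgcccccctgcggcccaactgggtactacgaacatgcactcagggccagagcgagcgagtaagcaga
FAM83G: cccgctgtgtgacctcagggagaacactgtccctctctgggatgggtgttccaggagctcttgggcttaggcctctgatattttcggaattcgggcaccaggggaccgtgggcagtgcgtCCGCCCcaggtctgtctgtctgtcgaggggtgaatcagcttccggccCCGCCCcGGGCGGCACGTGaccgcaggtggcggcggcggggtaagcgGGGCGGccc
DAG1: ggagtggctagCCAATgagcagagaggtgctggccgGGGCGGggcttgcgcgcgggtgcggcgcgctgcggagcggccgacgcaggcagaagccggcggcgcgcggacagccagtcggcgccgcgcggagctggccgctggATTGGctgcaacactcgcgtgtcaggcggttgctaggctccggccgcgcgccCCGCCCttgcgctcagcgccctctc
DNAJB1: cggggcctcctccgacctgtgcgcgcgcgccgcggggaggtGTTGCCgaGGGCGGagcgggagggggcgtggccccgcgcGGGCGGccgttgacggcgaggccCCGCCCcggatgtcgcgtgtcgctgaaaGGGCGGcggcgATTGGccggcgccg
SERPINA1: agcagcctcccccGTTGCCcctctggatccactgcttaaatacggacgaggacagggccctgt
GOLGA1: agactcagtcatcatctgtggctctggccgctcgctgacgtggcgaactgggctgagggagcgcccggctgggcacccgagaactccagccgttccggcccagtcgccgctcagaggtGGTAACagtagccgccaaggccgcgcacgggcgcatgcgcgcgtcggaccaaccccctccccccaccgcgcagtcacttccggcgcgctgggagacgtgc

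The runs lie at chr10:75111406-75111655 on the plus strand for SAMD8, chr12:45990697-45990824 on the minus strand for SCAF11, chr17:19004792-19005014 on the minus strand for FAM83G and chr3:49470049-49470266 on the plus strand for DAG1. Those of DNAJB1, SERPINA1 and GOLGA1 lie on the minus strand at chr19:14518492-14518647, chr14:94388603-94388665 and chr9:124941084-124941301. The SAMD8 run held GC boxes and no other letters searched, and that of SCAF11 held none of them. The DAG1 run held GC boxes and CCAAT boxes, and the FAM83G run held GC boxes and an E-box beside 1 of them. In DNAJB1 an RFX half-site stood next to a GC box, and the SERPINA1 and GOLGA1 runs also held a half-site. Runs of VGLL4 and NSD1, also hosts in the lists, and of the weaker DNAJB1 interval held none of the letters and are not printed. The printed runs thus do not show how frequent half-sites were. Among promoters overlapped by a near-end intragenic interval, half-sites were not more frequent than among all promoters (14.1% against 17.6%, counted further on).

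The near-end intragenic intervals were of middling strength. The peak score of the list has no stated meaning and was used only for ranking. It had a median of 29 (95% interval 27 to 30) with quartiles of 22 and 37 and a range from 13 to 83. The median was 30 over the whole list, 27 for intervals deeper than 5 kb in a gene and 32 for those at coding gene ends. A score in the upper quartile of the list, 39 or more, was held by 118 of the 533 (22.1%, 18.8 to 25.9), beside 28.7% of the whole list. The share was 19.8% (17.0 to 22.8) among deeper intragenic intervals and 33.3% (31.6 to 35.0) at coding gene ends, so the near-end intragenic intervals lay below those at gene ends and overlapped with the deeper ones.

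**Figure D1:**
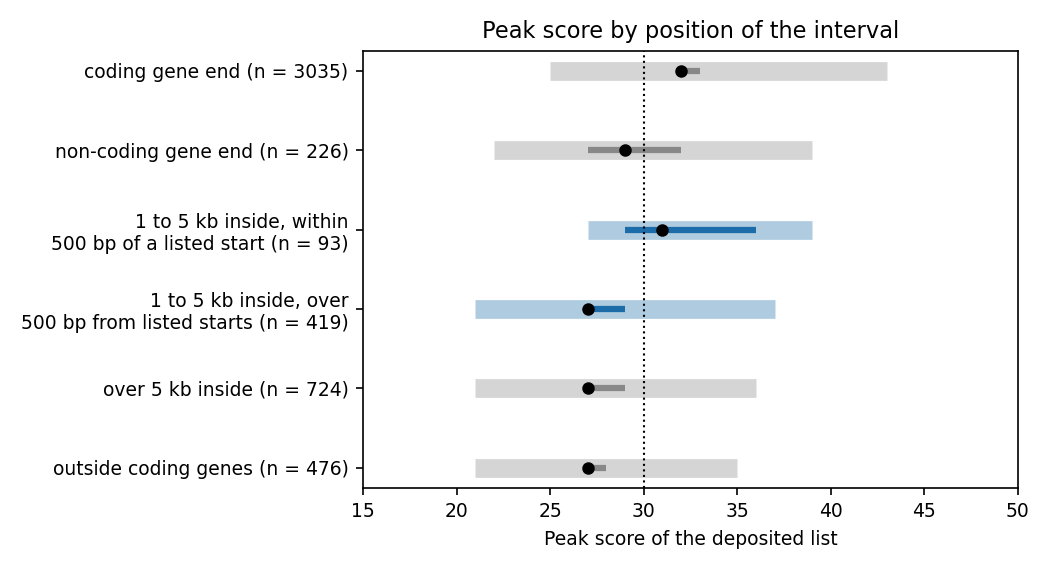
Peak score of the deposited list (horizontal axis, no unit) for 6 sets of intervals. Dots are medians, dark bars their 95% intervals, pale bars the quartiles, and the dotted line is the median of the whole list, 30. Intervals 1 to 5 kb inside a gene that lay within 500 bp of a listed transcript start had a median of 31, those farther from such starts 27.

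The strongest interval (score 83, chr2:127408513-127408775) lay in LOC124908047, an uncharacterised coding gene, 1710 bp from its end. A neighbouring pair in SCAF11, which encodes a serine- and arginine-rich protein linked to splicing, scored 82 (chr12:45990078-45990598) and 73 (chr12:45990697-45990943). The pair was 99 bp apart, and the midpoints fell 236 bp after and 246 bp before a transcript start inside the gene. SRC, the tyrosine kinase, held an interval with a score of 81, 1247 bp from its end. Next came SCNN1A (79), a subunit of the epithelial sodium channel, SAMD8 (77), an enzyme of ceramide metabolism in the endoplasmic reticulum, and DUSP8 (76), a phosphatase of MAP kinases. DOC2A, a calcium sensor of vesicle release, FAM83G, a partner of casein kinase 1, and SRF, the serum response factor, each had a score of 73. MUC6, a gastric mucin, scored 68, and ITPRIPL2 scored 67. The 12 strongest intervals thus fell in 11 genes of unlike function.

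The near-end intragenic intervals were somewhat narrower than those at coding gene ends. The median width was 260 bp (248 to 270) against 272 bp for the whole list and 257.5 bp (249 to 268) for deeper intragenic intervals. At coding gene ends it was 282 bp (278 to 289), a range that does not overlap with that of the near-end intragenic intervals. The widest was 2055 bp in SKP2, an F-box protein of the cell cycle, with a score of only 27. The following ones were 1897 bp in PTK2B, a focal adhesion kinase, 1597 bp in NAA80, the enzyme that acetylates actin, 1376 bp in LIPT2, a lipoyltransferase, and 1324 bp in ADH5. An interval was printed on more than 1 line of the list in 78 of 533 cases (14.6%, 11.9 to 17.9), beside 18.4% of the whole list. The lines carried different scores in 42 of the 78. ARPC1B, a subunit of the actin-nucleating Arp2/3 complex, and PEDS1, the plasmalogen desaturase, each had an interval on 4 lines, and LHFPL4, TRIO, CARNS1, ZNF385A and EPB41L1 each had one on 3.

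ADH5, the glutathione-dependent formaldehyde dehydrogenase and a candidate gene of the study, had its interval at chr4:99074483-99075806. It ranked 28th of 533 by score (57). Its midpoint lay 4166 bp from the far end of the gene and 13644 bp from the listed start, and the next interval of the list was 78530 bp away. The interval was thus on the far-end side of ADH5 and not at a listed start. The paper describes the ADH5 promoter as enriched for RFX6 in its ChIP-seq data. Its ChIP-PCR found RFX6 at the putative site of the PGAM1 promoter but not at that of ADH5. Of 58 genes in a list of glycolysis and gluconeogenesis, ADH5 alone held a near-end intragenic interval (1.72%, beside 2.4% of all coding genes). An interval at an end was found in 5 of the 58 (8.62%, beside 16.1% of all coding genes).

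Within the 4 kb that the rule allowed, the intervals crowded toward gene starts. The end nearest to the interval could be named for 405 of the 533, and it was a start in 271 (66.9%, 62.2 to 71.3) and a far end in 134. Of the bases where such an interval could lie, 49.1% were nearest to a start. Per Mb of allowed bases there were 5.55 intervals (exact Poisson 95% interval 4.91 to 6.25) on the start side and 2.65 (2.22 to 3.14) on the far-end side, ranges that do not overlap. The other 128 intervals were nearest to an end whose role the reference tables do not give.

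The crowding was strongest close to the start. In the steps 1 to 2, 2 to 3, 3 to 4 and 4 to 5 kb there were 275, 103, 92 and 63 intervals. On the start side the density fell from 11.4 per Mb (9.64 to 13.4) at 1 to 2 kb to 2.07 (1.31 to 3.11) at 4 to 5 kb. On the far-end side it was 3.70 (2.76 to 4.85) at 1 to 2 kb and 2.38 (1.57 to 3.47) at 4 to 5 kb, with overlapping ranges. At 4 to 5 kb the sides of the gene thus could not be told apart by density. Score did not follow this order, with medians of 28, 29, 30 and 27 in the 4 steps.

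**Figure D2:**
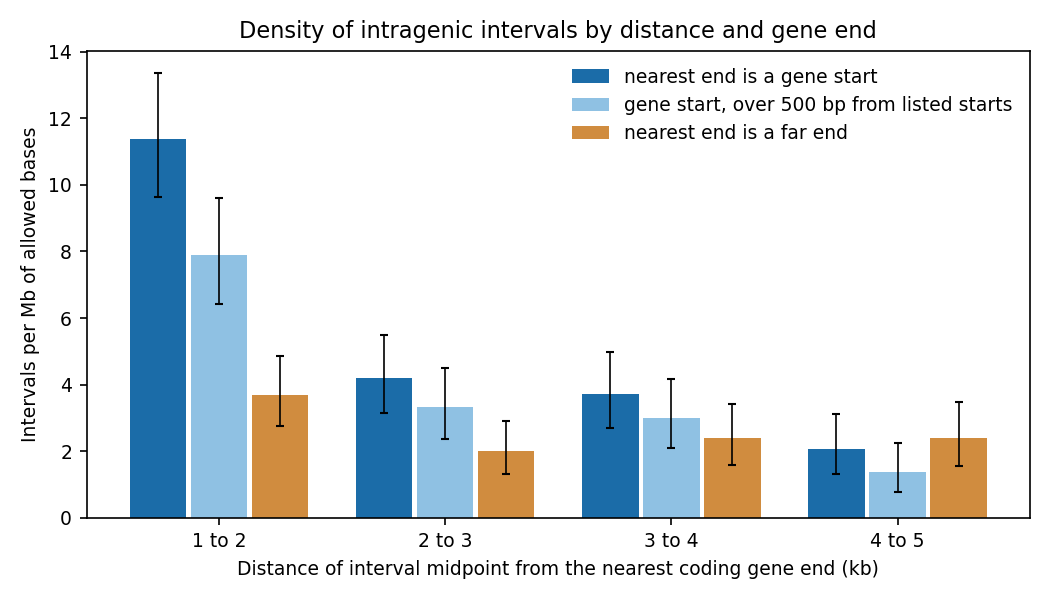
Near-end intragenic intervals per Mb of bases allowed by the rule (vertical axis) by distance of the midpoint from the nearest coding gene end in kb (horizontal axis), with exact Poisson 95% intervals. Dark blue is the start side, pale blue the start side without bases and intervals within 500 bp of a listed transcript start, and orange the far-end side. The start side falls from 11.4 to 2.07 per Mb and the far-end side lies between 1.99 and 3.70.

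A part of these intervals lay at transcript starts inside the gene. Of the 512 intervals on chromosomes for which transcript starts were listed, 93 (18.2%, 15.1 to 21.7) had their midpoint within 500 bp of a start, where 1.11% of the allowed bases lay. The density was 70.1 intervals per Mb (56.6 to 85.9) near such starts and 3.53 per Mb (3.20 to 3.89) elsewhere, a ratio of 19.8. The start belonged to the host gene for 92 of the 93. When all intervals were moved by 20 kb down or up, 1.66% and 1.01% of the moved intervals that met the rule were near a start. Deeper than 5 kb the share had an overlapping range, 125 of 709 (17.6%, 15 to 20.6), against 0.289% of the allowed bases. Chromosome 8 was not analysed for starts here.

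Midpoints fell on both sides of these starts. The median position was 59 bp downstream, with quartiles at 71 bp upstream (-71) and 236 bp downstream, and 35 of the 93 lay upstream. Seen from the promoters, 80 of 1378 listed starts that lay 1 to 5 kb from an end (5.81%) had a promoter window overlapped by a near-end intragenic interval, the window running from 250 bases before to 50 bases after the start. Most of these 1378 starts thus had no such interval in their promoter window. Over all 21041 listed coding transcript starts, 85 (0.404%) had one, but the rule leaves out gene ends.

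**Figure D3:**
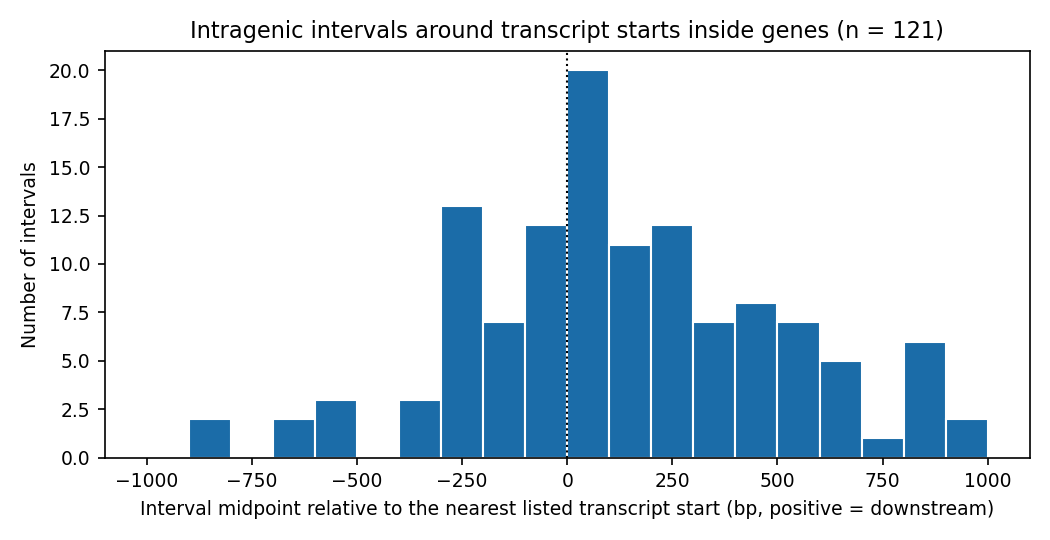
Number of near-end intragenic intervals (vertical axis) by the position of the midpoint relative to the nearest listed transcript start in bp (horizontal axis, positive is downstream), for the 121 intervals within 1 kb of a start. Bars are 100 bp wide, the dotted line is the start, and the counts are highest within about 300 bp of it.

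The 93 intervals at transcript starts were stronger and wider by their medians than the 419 farther away. Their median score was 31 (29 to 36) against 27 (27 to 29), and their median width was 306 bp (251 to 349) against 253 bp (242 to 265). Another interval began within 1 kb of 41.9% (32.4 to 52.1) of them and of 23.4% (19.6 to 27.7) of the others. Without the intervals and bases near starts, the density on the start side still fell from 7.89 per Mb (6.42 to 9.60) at 1 to 2 kb to 1.37 (0.766 to 2.26) at 4 to 5 kb. The start share was then 61.0% (55.5 to 66.3).

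Examples at internal starts came from several kinds of genes. DAG1, which encodes dystroglycan, had a 568 bp interval with a score of 64 whose midpoint lay 65 bp after a start. In ATF1, a cAMP-responsive transcription factor, a 703 bp interval scoring 53 was centred 18 bp before a start (this gene, like DAG1 and GOLGA1, was chosen after its values were seen). NSD1, a histone H3 lysine methyltransferase, held 3 intervals in a row with scores of 30, 21 and 17, whose midpoints lay 287 bp before, 68 bp after and 328 bp after starts of the gene. HYAL1, a hyaluronidase, also held 3, with scores of 17, 13 and 57, and the strongest was centred 260 bp before a start.

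Base composition was that of promoters rich in G and C. The 85 promoter windows overlapped by a near-end intragenic interval had a median GC content of 71.7% and a median of 31 CG dinucleotides in 300 bases. Internal windows 1 to 5 kb from an end without an interval had 60% and 11, and windows overlapped by any other interval had 69.7% and 31. The GC box, spelled GGGCGG, was present in 63 of the 85 windows (74.1%, 63.9 to 82.2), in 45.6% (42.9 to 48.3) of the 1287 internal windows without an interval and in 56.6% of all 21041 windows. It was present in 81.9% (80.2 to 83.5) of the 2176 windows overlapped by any other interval, so the share at near-end intragenic intervals was not above that of the rest of the list. Windows in several sets share genes, and GC content and the GC box are not separate measures.

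The letters of the RFX motif were not more frequent. An RFX half-site (GTTGCC or GTTACC, both strands) was present in 12 of the 85 windows (14.1%, 8.26 to 23.1), in 18.2% (16.2 to 20.4) of internal windows without an interval, in 16.2% (14.7 to 17.8) of windows overlapped by any other interval and in 17.6% of all windows. A full X-box was found in 0 of 85 windows, where up to 4.32% is allowed by the Wilson interval, and in 0.879% of all windows. CCAAT was found in 30.6% of the 85 windows against 34.4% of all, the E-box CACGTG in 8.24% against 8.22%, and the AP-1 letters TGAGTCA in 1.18% against 3.99%. A window is not the whole interval, and the remaining intervals could not be searched.

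**Figure D4:**
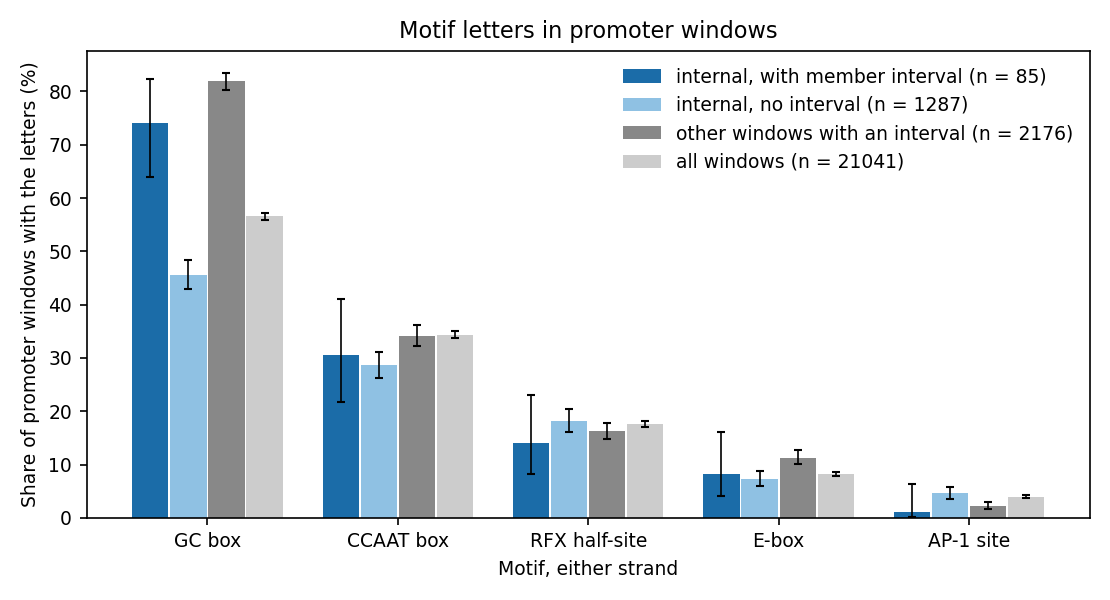
Share of 300-base promoter windows that hold the letters of a motif on either strand (vertical axis, %), with Wilson 95% intervals. Dark blue is the 85 windows overlapped by a near-end intragenic interval, pale blue internal windows without an interval, dark grey windows overlapped by another interval and pale grey all windows. The GC box stands at 74.1% beside 45.6% for internal windows without an interval and 81.9% for windows with another interval, and RFX half-sites at 14.1% beside 18.2% and 16.2%.

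The 533 intervals were held by 459 of the 19126 coding genes, or 2.4%. A single interval was found in 396 of them, 2 in 54, 3 in 7 and 4 in 2. The genes with 4 were CRIP2, a LIM-domain protein, with scores of 37, 21, 39 and 17, and KIF26A, an atypical kinesin, with 31, 20, 38 and 22. In CRIP2 all lay within 3466 bp of an end, and in KIF26A 3 of the 4 were on the far-end side. The genes with 3 were NSD1, HYAL1, PTH1R, the parathyroid hormone receptor, PLEC, a cytoskeletal linker, SIGIRR, an inhibitory interleukin receptor family member, FAIM2, an inhibitor of apoptosis, and MYLK2, the skeletal muscle myosin kinase. Among those with 2 were JAG2, a Notch ligand, CDK6, a cell cycle kinase, SIN3A, a corepressor, and LAMA5, a laminin chain.

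A further interval at an end of the same gene was common. Of the 459 host genes, 159 (34.6%, 30.4 to 39.1) had another interval within 1 kb of an end, beside 16.1% of all coding genes. The share was 24.3% (20.8 to 28.1) for the genes that hold an interval deeper than 5 kb. Where the strand was known, 113 of 354 hosts (31.9%) had an interval at the start and 17 (4.80%) at the far end. For 266 of the 459 hosts (58.0%) there was neither an interval within 1 kb of their own ends nor one deeper than 5 kb. Some of these hosts may hold a further interval at a non-coding gene end, which was not counted here. Near a transcript start, 26.9% (18.9 to 36.7) of the intervals lay in a gene with an interval at an end, and away from starts 37.9% (33.4 to 42.7). Host genes were of ordinary length, with a median of 21296 bp against 24476.5 bp for all coding genes.

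Among 10 lists of genes, written with earlier results of these data known, that of immediate-early and stress-response genes held the most hosts, 8 of 48 (16.7%) beside 2.4% of all coding genes. They were JUN, KLF4, KLF10, NR4A1, ZFP36L2, GADD45A, DNAJB1 and CDKN1A. An interval at a gene end was found in 17 of the 48 (35.4%, beside 16.1% of all coding genes). JUN, a subunit of AP-1, held an interval of 200 bp with a score of 27 near the middle of its 3257 bp. KLF4, a zinc-finger factor, had one with a score of 34, 1395 bp from its start. GADD45A, a DNA damage protein, had one with a score of 49, and the p21 gene CDKN1A one with a score of 17. KLF10 held 2, scoring 33 and 44. The scores thus ran from 13 in ZFP36L2, an mRNA-decay protein, to 49 in GADD45A.

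DNAJB1, an HSP40 co-chaperone of the heat shock response, held a pair of intervals with scores of 29 and 37. Both midpoints lay before transcript starts inside the gene, by 208 and 194 bp. The annotated gene is 45623 bp long, and the pair was 3376 and 3822 bp from its far end. The pair was thus close to starts of shorter forms of the gene, and the letters before the start beside the stronger interval are printed above. In NR4A1, a nuclear receptor, the interval (score 20) lay 2097 bp from the far end.

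In the MAP kinase list 5 of 44 genes were hosts (11.4%, beside 2.4% of all coding genes), and 17 of the 44 had an interval at an end (38.6%, beside 16.1%). SOS1, which activates RAS, and MAP2K3, a kinase of the p38 branch, had intervals with scores of 33 and 29 centred 286 and 270 bp after transcript starts. MAP3K5, the stress kinase ASK1, had one with a score of 35, and MAPK12 (p38 gamma) one with a score of 27. The interval in MAPK7 (ERK5) was 1146 bp wide and scored 36. DUSP8 and MAP3K6, outside the list, also held intervals.

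In the hepatocyte list 2 of 45 genes were hosts (4.44%, beside 2.4% of all coding genes), and 2 had an interval at an end (4.44%, beside 16.1%). SERPINA1, which encodes alpha-1 antitrypsin and is transcribed from separate promoters in liver and other cells, had an interval at chr14:94388406-94388665 with a score of 30, 67 bp after a transcript start inside the gene. The bases before that start, printed above, hold an RFX half-site. Such letters were in 14.1% of the 85 windows counted above and in 17.6% of all windows. AHSG, the plasma protein fetuin-A, had one of 200 bp with a score of 21, 3865 bp from its far end.

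In the next 4 lists the counts stand beside 2.4% of all coding genes as hosts and 16.1% with an interval at an end. The Hippo list had 2 hosts of 32 (6.25%), namely VGLL4, a partner of TEAD factors with intervals scoring 39 and 48, and DCHS1, a protocadherin with a score of 31. The second VGLL4 interval was centred 71 bp before a transcript start. In the Wnt list DVL1, a signal transducer below Frizzled, was the only host of 40 (2.5%), with a score of 38. An interval at an end was found in 10 of the 32 Hippo genes (31.2%) and 12 of the 40 Wnt genes (30%). Among 80 chromatin regulators there were 3 hosts (3.75%), NSD1, BRD1, a subunit of a histone acetyltransferase complex, and DNMT3A, a DNA methyltransferase, and 29 of the 80 had an interval at an end (36.2%). The splicing list had 0 hosts of 63, a number of genes in which the share of all coding genes would give few hosts, and 22 had an interval at an end (34.9%).

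RFX-related lists stood near the background. In the ciliary list 1 of 58 genes was a host (1.72%, beside 2.4% of all coding genes), DYNC2I2, a subunit of the dynein of intraflagellar transport. Its interval scored 63 and was nearest to the far end of the neighbour SPTAN1. None of the 15 RFX genes and MHC class II partners held a near-end intragenic interval, and 3 of the 15 had an interval at an end (20%). Over all lists 23 of 483 genes (4.76%) were hosts. Lists of this size give wide ranges, gene length, which limits the room for such intervals, was not taken into account, and no list was tested.

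By chromosome, the share of intervals that were near-end intragenic was highest on chromosome 19, with 45 of 272 (16.5%, 12.6 to 21.4). It was lowest on chromosome 13 (0 of 20, up to 16.1%), followed by chromosome 21 (2 of 54) and chromosome 18 (2 of 49), and on chromosome 6 it was 6.30% (3.86 to 10.1). Per Mb of allowed bases the order differed, with 7.87 intervals on chromosome 20 and 7.78 on chromosome 15 at the top, 5.11 on chromosome 19 and 0.925 on chromosome 4.

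**Figure D5:**
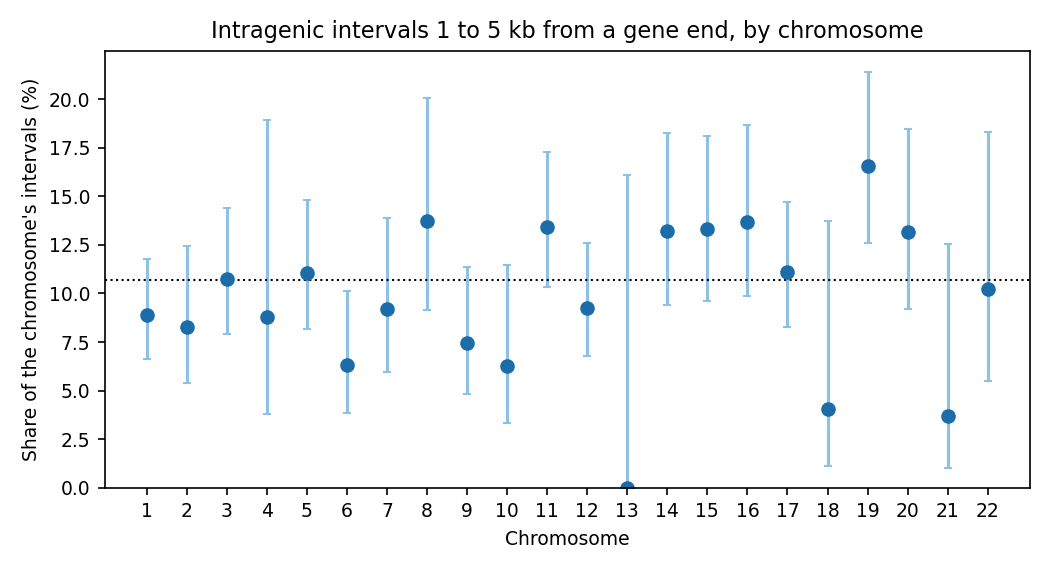
Share of the listed intervals of each chromosome that were near-end intragenic (vertical axis, %), with Wilson 95% intervals, for chromosomes 1 to 22 (horizontal axis). The dotted line is the share over all chromosomes, 10.7%. Chromosome 19 (16.5%) has a range above the line, chromosome 6 (6.30%) a range below it, and chromosome 13 is at 0 of 20.

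The limits of the rule cut through a continuous range of distances. Just inside the 1 kb limit were intervals in MAP3K6 (score 51) and THRA (41), both 1002 bp from an end, and YWHAZ (24) at 1006 bp. Just outside it were ANKRD9 (32) at 998 bp, CNPPD1 (22) at 992 bp and ZBTB2 (49) at 989 bp. At the 5 kb limit, ATG16L2 (35), KIF26A (20) and KIF3C (20) lay inside at 4993, 4977 and 4970 bp. MYLK (25), MAFK (39) and GPR84 (36) lay outside at 5039, 5055 and 5089 bp.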

How the data were processed

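HA-tagged RFX6 was precipitated from MHCC-97H chromatin and sequenced. The submitters' processing notes name MACS2 2.1.0.2 and GRCh37, while the aligner and the use of the input are not given in the sources used here. The authors deposited a peak list without a header, and its last column, a score whose meaning is not stated, was used as deposited for ranking only. Depth was unknown.

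The 6214 lines gave 5022 distinct intervals after 1 line with digit separators was mended, each with its highest score. The 25 intervals on chromosome X and 3 mitochondrial ones were left out. Coordinates are 1-based. Midpoints were placed against the RefSeq gene table of GRCh38.p14 (19126 autosomal coding genes), and strand came from a RefSeq promoter table covering 15101 of them. No exons or genome sequence were used, so exonic and intronic positions were not told apart. Wilson and exact Poisson intervals were computed at 95%, and those of medians from order statistics. The procedure was tested on simulated data.

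The named genes were ADH5, hosts of the 12 highest scores, the 5 widest intervals and the 5 on most lines (ties broken by chromosome and start, with the ties at 3 lines named too), the 3 nearest each side of a limit, hosts of at least 2 intervals, and hosts in the lists. The intervals, lists and rules were chosen with earlier results of these data known. The comparison with transcript starts and its alternatives were chosen after seeing the data, as were a score of at least 30 for widths, distance steps and lists. Python 3.11.15, numpy 2.4.6, pandas 2.3.3, scipy 1.17.1 and matplotlib 3.10.9 were used.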

Additional observations from a re-analysis of the deposited data

How the results depend on the processing

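No paired analysis was possible because a single ChIP library was listed and no test was made. Of 28 alternatives, 16 were counted as unchanged and 12 as moved, although values among the 16 also differed from the reported ones. The share of promoter windows with an RFX half-site was 14.1% as reported. It was 9.41% in the central 200 bases, a shorter stretch, and 12.1% at a score of at least 30. A score of at least 30 left 252 near-end intragenic intervals and an inner limit of 2 kb left 245, and other settings gave 434 to 683. Moving all intervals by 20 kb gave 683 and 610. The moved intervals include those that had lain at gene ends, so these counts cannot show whether the class held more or fewer intervals than other positions. At a score of at least 30 the median width was 294.5 bp, 23.6% of hosts had an interval at an end (beside 9.91% of all coding genes), 14 listed genes were hosts and 22% of intervals were near a transcript start. With the nearest end only, 25.9% of hosts had an end interval. Without intervals near transcript starts the start share was 61.0%. The share near a transcript start was 12.1% for a window of 250 bp, 23.6% for 1 kb, and, with intervals moved by 20 kb, 1.66% (down) and 1.01% (up). The causes were not tested. The unknown depth and the single library limit all values.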

Other observations

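Solute carriers and zinc-finger genes were counted by symbol. Of 372 SLC genes, 14 (3.76%) held a near-end intragenic interval, beside 2.4% of all coding genes, among them SLC67A1 (score 53, 19 bp after a transcript start), SLC4A9 (50), SLC6A19 (41), an amino acid transporter, and SLC27A1 (27), a fatty acid transporter. Of 505 ZNF genes, 8 (1.58%) were hosts, with the highest score in ZNF276 (57). The TMEM family had 4 hosts of 226 (1.77%), RAB 1 of 71 (1.41%) and RBM 1 of 36 (2.78%). None of 71 USP genes, 25 KDM and KMT genes and 88 RPL and RPS genes was a host. An interval at an end was found in 23 of the 88 ribosomal protein genes (26.1%, beside 16.1% of all coding genes). The share was 40% for KDM and KMT, 31.0% for RAB and 25% for RBM genes. It was 14.2% for SLC, 11.3% for USP, 10.6% for TMEM and 8.91% for ZNF genes. A gene could be a host only if it had bases over 1 kb from every gene end, and the shortest host was 2406 bp long. Short genes thus had little or no room for such an interval, and gene length was not taken into account. No family was tested.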
